A study of Homo sapiens with 2 samples.

Results

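The CXC chemokines described here were 10 genes, CXCL1, CXCL2, CXCL3, CXCL5, CXCL6, CXCL8, CXCL10, CXCL11, CXCL14 and CXCL16. They were found by their gene symbol in the array's annotation, with CXCL8 listed there under its older name IL8, and had 12 of the 24267 probes. The array names 12445 genes in all. The set was selected on the log2 ratios of CXCL1, CXCL3 and CXCL8, which were lower together on these same arrays, so the ratios of these 3 genes are a description and support nothing. RNA came from KYSE-170, an established cell line from a human oesophageal squamous carcinoma, grown in a mix of Ham's F-12 and RPMI media with 5% fetal bovine serum and given its oligoribonucleotide by lipid transfection. The miR-210 sample had received an oligoribonucleotide for miR-210. The ncRNA sample had received 1 called ncRNA in the labels, whose sequence is not given in the sources used here. Each transfection had 1 array, hybridised with Cy5-labelled cRNA made from 500 ng of total RNA, so no difference has a replicate and no p-value can be given.

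Chemokines are small secreted proteins that guide leukocytes along a gradient, and the CXC family is named for the spacing of its first cysteines. CXCL1, CXCL2, CXCL3, CXCL5, CXCL6 and CXCL8 carry a glutamate-leucine-arginine motif, attract neutrophils and act through the receptor CXCR2, with CXCR1 also used by CXCL6 and CXCL8. CXCL10 and CXCL11 are induced by interferon and attract T cells through CXCR3, CXCL14 is made by resting epithelia, and CXCL16 is a membrane-anchored ligand of CXCR6. Squamous epithelia and their tumours make several of the neutrophil-attracting members, whose promoters are classical targets of NF-kB, the transcription factor activated by interleukin 1 and tumour necrosis factor.

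The transfected microRNA is shown first, followed by the promoters of the genes on which the set was selected. The labels do not state which strand of the miR-210 hairpin the oligoribonucleotide carries. The 2 mature forms in RefSeq (GRCh38.p14, chromosome 11, minus strand) are given here with the seed, bases 2 to 8, in capitals.
hsa-miR-210-3p: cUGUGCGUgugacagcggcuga
hsa-miR-210-5p: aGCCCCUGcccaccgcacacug
The 3p form, at chr11:568112-568133, is the strand classically called miR-210. Target sites in the chemokine transcripts were not analysed here.

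The following promoter sequences are the 250 bases before the RefSeq start site of CXCL1 (chr4:73869143-73869392, plus strand), CXCL3 (chr4:74038690-74038939, minus strand) and CXCL8 (chr4:73740319-73740568, plus strand), the 3 genes that were lower, and of CXCL5 (chr4:73998678-73998927, minus strand), a measured family member that was not. All are on GRCh38.p14 and read 5′ to 3′ on the strand of the gene. Capitals mark matches to the kappaB letters GGNNTTTCC, a form of the NF-kB motif, searched on both strands.
CXCL1: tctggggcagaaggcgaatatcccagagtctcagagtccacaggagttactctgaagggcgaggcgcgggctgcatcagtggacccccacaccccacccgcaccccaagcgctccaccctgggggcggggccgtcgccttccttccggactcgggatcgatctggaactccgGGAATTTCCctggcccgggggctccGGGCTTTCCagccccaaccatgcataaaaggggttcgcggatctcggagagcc
CXCL3: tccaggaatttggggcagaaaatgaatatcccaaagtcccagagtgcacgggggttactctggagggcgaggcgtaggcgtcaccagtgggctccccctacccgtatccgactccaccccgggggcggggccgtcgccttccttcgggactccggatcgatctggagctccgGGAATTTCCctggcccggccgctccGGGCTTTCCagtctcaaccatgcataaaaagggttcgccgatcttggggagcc
CXCL8: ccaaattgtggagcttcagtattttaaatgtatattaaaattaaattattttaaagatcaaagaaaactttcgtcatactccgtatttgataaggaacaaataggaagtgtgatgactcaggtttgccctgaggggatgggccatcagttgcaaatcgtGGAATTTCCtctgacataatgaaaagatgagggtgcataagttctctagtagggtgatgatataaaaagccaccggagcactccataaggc
CXCL5: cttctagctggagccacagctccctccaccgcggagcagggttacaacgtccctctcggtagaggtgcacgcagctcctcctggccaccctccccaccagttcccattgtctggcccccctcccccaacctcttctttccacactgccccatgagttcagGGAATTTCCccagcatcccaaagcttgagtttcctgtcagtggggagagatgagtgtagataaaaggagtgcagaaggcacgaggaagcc

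CXCL1 and CXCL3 each held 2 kappaB matches, GGAATTTCC and GGGCTTTCC, at the same distance from the start, the first ending 70 and the second ending 45 bases before it. CXCL2, the third close copy, had the same 2 matches, ending 69 and 45 bases before its start. CXCL8 and CXCL5 each held 1 match, GGAATTTCC, ending 83 and 82 bases before the start. The windows of CXCL1 and CXCL3 were 81.4% identical in a global alignment, against 41.6% between CXCL1 and CXCL8 and 50.7% between CXCL1 and CXCL5. Similar letters in CXCL1, CXCL2 and CXCL3 are therefore not independent matches.

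Of the 9 members with a promoter in the RefSeq table, 8 had a kappaB match, CXCL14 being the exception, where 5.48% of 35116 promoters of this length had one. The letters were chosen with the known sites of this family in mind, so nothing is read from the 8 of 9. The windows of CXCL5 and CXCL6 were 85.3% identical, so their matches are not independent either. AP-1 letters TGANTCA, searched the same way, were found in CXCL8, CXCL11 and CXCL14 and in 6.57% of all promoters. The interferon-stimulated response element was found in CXCL10 and in 3.02% of all promoters. None of these matches overlapped another. The promoter of CXCL5, whose intensity was close on both arrays, held the GGAATTTCC match also found in CXCL1, CXCL3 and CXCL8. CXCL5 and CXCL8 lacked the second match, GGGCTTTCC, of CXCL1 and CXCL3. Whether these matches bear on the ratios was not tested. A match is a string of letters, and binding was not measured.

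**Figure D1:**
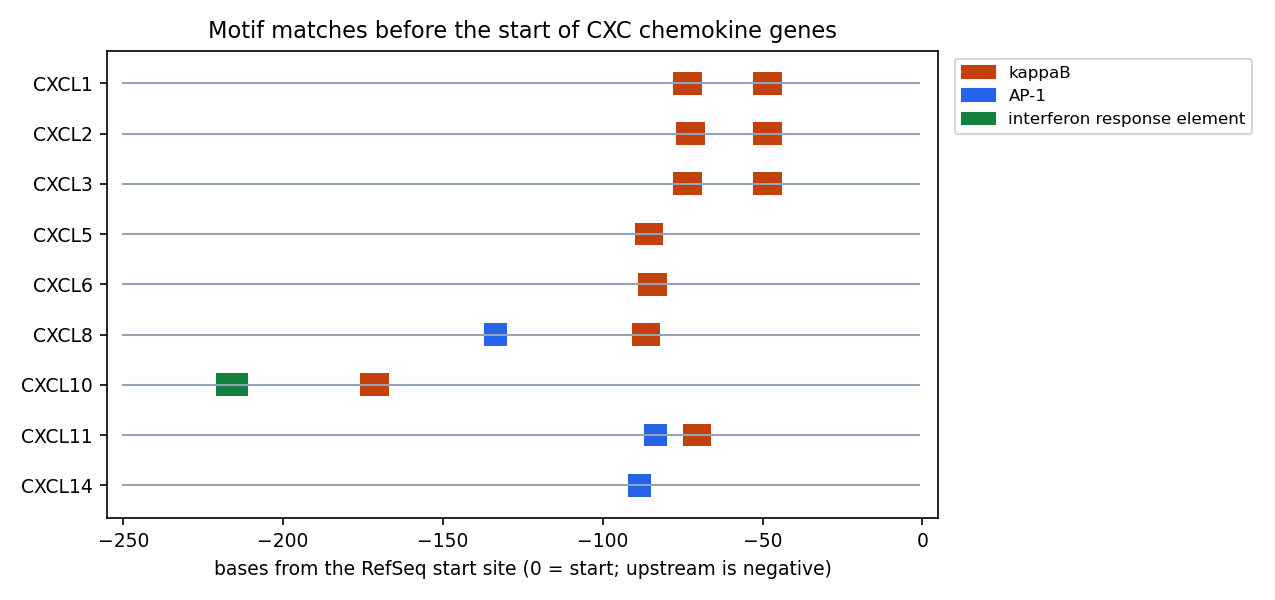
Motif matches in the 250 bases before the RefSeq start site of 9 CXC chemokine genes. The horizontal axis is the distance from the start in bases, and coloured boxes are matches to the kappaB, AP-1 and interferon response element letters. CXCL1, CXCL2 and CXCL3 share a pair of kappaB matches, and CXCL14 has an AP-1 match but no kappaB match.

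The values are intensities on a linear scale, 1 per probe and array, and the median over all probes was 36 on the miR-210 array and 39 on the ncRNA array. Differences are given as log2 ratios, miR-210 over ncRNA, computed after the 24177 probes above 0 on both arrays had been quantile normalized. A gene was kept when the mean level of its brightest probe reached 37.5, the median of all probes on the normalized scale, which 6684 genes did. Among 251 genes where several probes were kept, the 2 brightest probes scattered around their mean log2 ratio with a SD of 0.44, called the spread between probes. That spread covers probes on the same pair of arrays and leaves out differences between cultures. The filter kept 5 of the 10 chemokines, CXCL1, CXCL3, CXCL5, CXCL8 and CXCL16. Of the 10 squamous epithelial markers with a probe, 9 were kept, 8 of them above 0, with a median log2 ratio of 0.43. Over all genes kept, 48.6% were under 0. Summed over all 10 markers, kept or not, intensity was 17948 on the miR-210 array and 20312 on the ncRNA array, with SFN the brightest on both. The keratins KRT17 and KRT5 read 2736 and 496 on the miR-210 array and 1541 and 290 on the ncRNA array. SFN, an epithelial 14-3-3 protein, went the other way at 7094 with miR-210 and 12693 with ncRNA, and TP63, the squamous lineage factor, read 22 with miR-210 and 57 with ncRNA and was not kept. SFN and TP63 were named after their values were seen.

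CXCL8, also called interleukin 8 and a strong attractant of neutrophils, read 688 on the miR-210 array and 1522 on the ncRNA array at its brightest probe. That probe stood well up on both arrays, at percentile 91.1 of the miR-210 array and 94.7 of the ncRNA array. Its log2 ratio was -0.996, or 1.99-fold lower on the miR-210 array, and the fold was 2.21 on the deposited scale. The ratio was 2.28 times the spread between probes, and 2.8% of the 1000 probes nearest in level had a ratio as low. CXCL8 is among the genes on which the set was selected, so nothing is read from that multiple or that share. In these bulk samples, fewer cells making a transcript and less transcript per cell cannot be told apart.

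Of all the chemokines, CXCL8 was the one with more than 1 probe, and its 3 probes disagreed. The second read 37 on the miR-210 array and 22 on the ncRNA array, a log2 ratio of 0.84. The third read 11 with miR-210 and 3 with ncRNA, a log2 ratio of 1.87. Both were thus higher on the miR-210 array, and both lay under the level filter. Around the level of the second probe, 4.0% of the 1000 nearest probes were at least 2-fold lower and 5.8% at least 2-fold higher. A ratio as high as its own was found in 8.3% of them. Around the level of the third probe, 25.8% of the 1000 nearest probes were at least 2-fold lower and 25.0% at least 2-fold higher.

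Opposite signs at 2 probes of a gene were common on these arrays. In 104 of those 251 genes with several kept probes, or 41.4%, the log2 ratios of the 2 brightest had opposite signs. Of the 64 genes like CXCL8, whose brightest probe was kept and at least 1.5-fold apart while the next lay under the filter, 41 had the same sign at both. Which part of the CXCL8 transcript each probe covers is not given in the sources used here, so the lower value of CXCL8 rests on its brightest probe.

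CXCL1, a growth-regulated oncogene product that attracts neutrophils, read 32 on the miR-210 array and 73 on the ncRNA array. Its miR-210 value lay under the median of that array, at percentile 46.7, so CXCL1 passed the filter through its ncRNA value. The log2 ratio was -1.09, or 2.14-fold lower. CXCL3, a close relative with the same receptor, read 55 on the miR-210 array and 126 on the ncRNA array, both above the array medians. Its log2 ratio was -1.09, or 2.13-fold lower. Among the 6684 genes kept, CXCL1, CXCL3 and CXCL8 ranked 176, 178 and 217 from the lowest ratio. CXCL1, CXCL3 and CXCL8 therefore lay close together in ratio and inside the lower tail that many other genes also reached.

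CXCL2, a close copy of CXCL1 and CXCL3, read 10 on the miR-210 array and 26 on the ncRNA array. It was under the median on both and was not kept. Its log2 ratio of -1.35 had the same sign as those of CXCL1 and CXCL3, but 9.5% of the 1000 probes nearest to it in level were also at least 2-fold lower and 9.7% at least 2-fold higher. Since the copies are so alike, their values are uncertain to the extent that a probe reads more than its own gene, which was not tested.

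CXCL5 and CXCL6, the pair of neutrophil attractants whose promoters were 85.3% identical, differed little between the arrays. CXCL5 read 347 on the miR-210 array and 386 on the ncRNA array, a log2 ratio of -0.03 and well within the spread between probes. CXCL6 read 24 with miR-210 and 27 with ncRNA, under both medians and not kept, with a log2 ratio of -0.11. CXCL5 stood at percentiles 85.0 and 85.2 of the miR-210 and ncRNA arrays, so its small ratio is not that of a dim probe. The difference of the log2 ratios of CXCL5 and of CXCL1, CXCL3 and CXCL8 has no replicate to test it.

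The interferon-induced pair was dim. CXCL10 read 13 on the miR-210 array and 27 on the ncRNA array, with a log2 ratio of -1.03. CXCL11 read 12 with miR-210 and 9 with ncRNA, with a log2 ratio of 0.42. Neither was kept, and the signs of the pair were opposite. At the level of CXCL10, 8.0% of the 1000 nearest probes were at least 2-fold lower, beside 3.19% of all genes kept.

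CXCL14, which normal squamous epithelium makes and many tumours lose, read 25 on the miR-210 array and 11 on the ncRNA array. Both values were under the array medians, and the log2 ratio of 1.21 was the only one at least 2-fold higher among the brightest probes of the 10 genes. At its level, 8.9% of the 1000 nearest probes were at least 2-fold higher. CXCL16 read 140 on the miR-210 array and 125 on the ncRNA array. Its log2 ratio of 0.28 was inside the spread between probes.

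**Figure D2:**
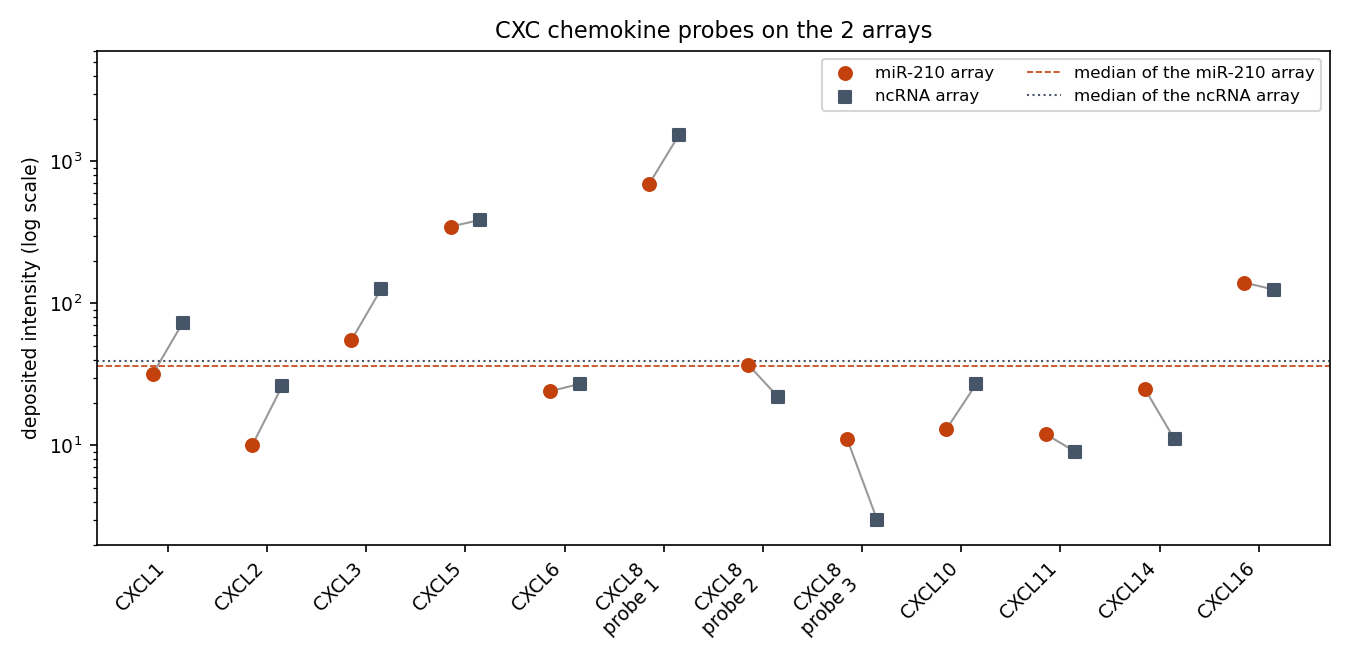
Deposited intensity of each CXC chemokine probe, on a log scale, with the miR-210 array as circles on the left and the ncRNA array as squares on the right of each pair. Horizontal lines mark the array medians of 36 and 39; CXCL1, CXCL3 and the brightest CXCL8 probe are lower on the miR-210 array, and the other CXCL8 probes are higher on it.

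Of the 5 genes kept, 2 were at least 2-fold lower and 3 at least 1.5-fold lower with miR-210, and none was 1.5-fold higher. Among all genes kept, 3.19% were at least 2-fold lower, 3.02% at least 2-fold higher, 10.8% at least 1.5-fold lower and 11.9% at least 1.5-fold higher. Since the set was chosen for its lower members, nothing is read from the count of lower genes. The median log2 ratio of the 5 genes was -0.996, the value of CXCL8, beside 0.01 for all genes kept. Since 3 of the 5 were selected for low ratios, nothing is read from this median either. The 6 neutrophil-attracting members ranged from -1.35 for CXCL2 to -0.03 for CXCL5 at their brightest probe. Of all named genes, 47.3% were under 0. Among the 6 members, CXCL1, CXCL3 and CXCL8 are the genes the set was selected on. CXCL2 and CXCL6 were under the filter, and CXCL5 and CXCL6 were inside the spread between probes. The chemokine genes of the same cluster outside the set had mixed signs, with PPBP at 0.37, PF4V1 at -0.66 and PF4 at -1.14. Without the filter, 4 of the 10 genes were at least 2-fold lower, CXCL1, CXCL2, CXCL3 and CXCL10, and 1 was at least 2-fold higher, CXCL14, where 6.95% of all named genes were at least 2-fold lower and 7.05% at least 2-fold higher. Of the 6 neutrophil-attracting members, 4 were kept. The 3 of them at least 1.5-fold lower were CXCL1, CXCL3 and CXCL8, on which the set was selected. Nothing is read from that count, which stands beside 10.8% of all genes kept. A probe's brightness also depends on its own sequence, so differences in intensity between genes are not read as differences in transcript amount.

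**Figure D3:**
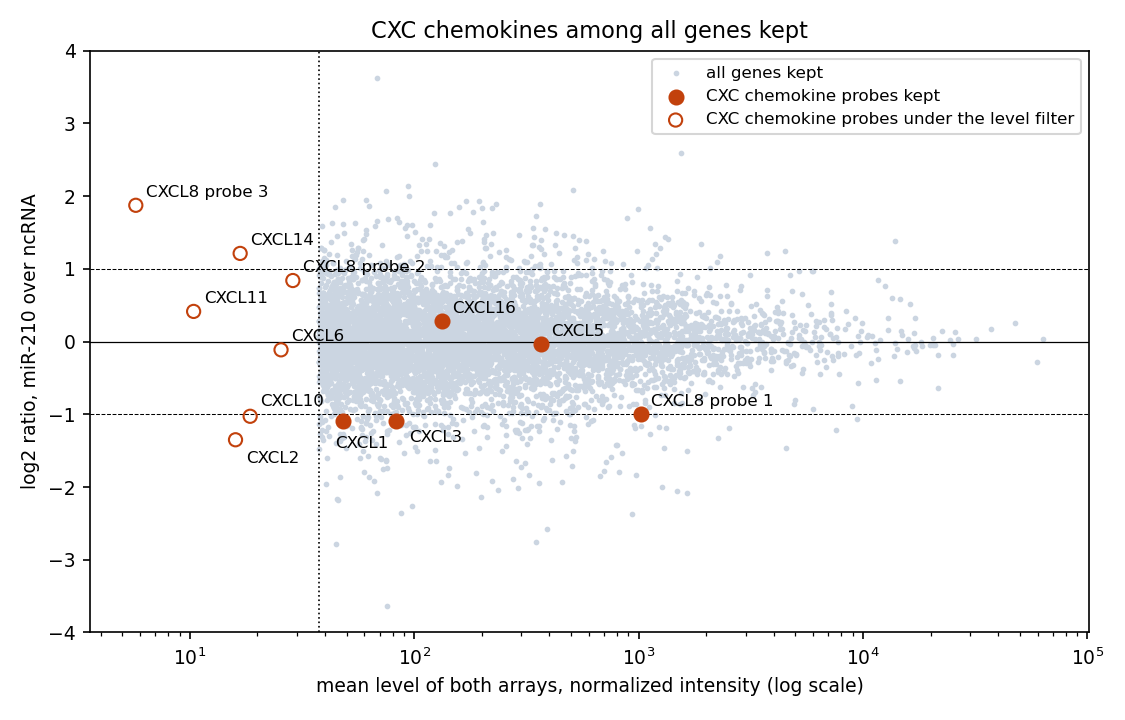
Log2 ratio of miR-210 over ncRNA (vertical) against the mean normalized level of both arrays (horizontal, log scale) for the 6684 genes kept in grey and the 12 CXC chemokine probes in orange, filled where kept. The vertical line is the level filter at 37.5 and dashed lines mark 2-fold; CXCL1, CXCL3 and the brightest CXCL8 probe lie at the lower dashed line, and CXCL5 and CXCL16 lie near 0.

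Normalization and the treatment of low intensities moved these values by different amounts. On the deposited scale, where the median gene kept lay at -0.12, CXCL1, CXCL3 and CXCL8 had log2 ratios of -1.19, -1.20 and -1.15 and were all past 2-fold. With an offset of 10 added to every intensity, which damps ratios of dim probes, no kept chemokine was 2-fold lower and 3 were 1.5-fold lower, where 2.59% of all genes kept were 2-fold lower and 9.41% were 1.5-fold lower. Across all settings run, CXCL8's brightest probe ranged from -1.15 to -0.95, CXCL3 from -1.20 to -0.68 and CXCL1 from -1.19 to -0.54. No single probe turned in sign, which an offset, a filter or an average over probes cannot bring about. The mean over all 3 probes of CXCL8 was above 0, at 0.57. CXCL8 lay on either side of 2-fold depending on the scale, and CXCL1 and CXCL3 depending on the offset.

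**Figure D4:**
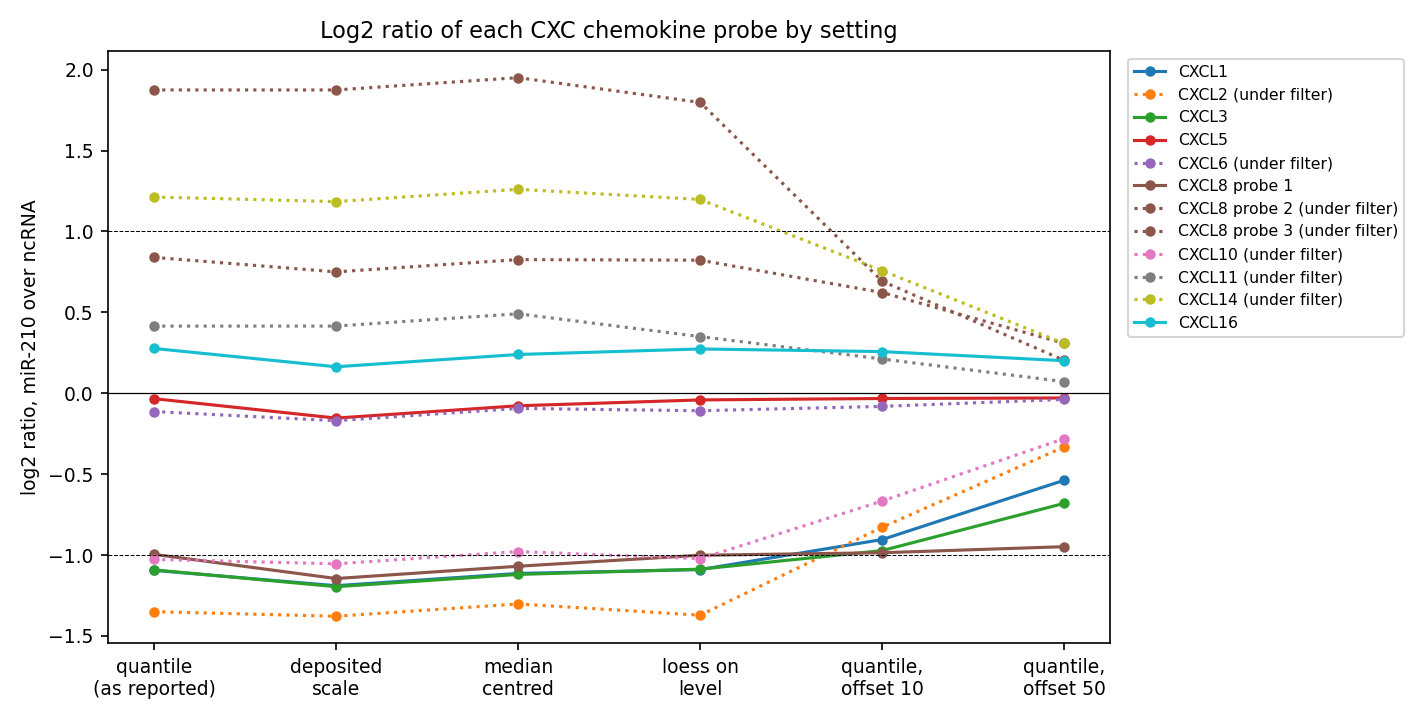
Log2 ratio of miR-210 over ncRNA for each CXC chemokine probe (vertical) under 6 settings of normalization and offset (horizontal), with solid lines for kept probes and dotted lines for those under the filter. No line crosses 0, and the brightest CXCL8 probe stays between -1.15 and -0.95, a narrower range than those of CXCL1 and CXCL3.

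The receptors of these chemokines were dim, and none passed the filter. CXCR2, the receptor of the neutrophil attractants, read 7 on the miR-210 array and 4 on the ncRNA array. CXCR3, the receptor of CXCL10 and CXCL11, read 20 with miR-210 and 37 with ncRNA. CXCR6, the receptor of CXCL16, read 20 with miR-210 and 17 with ncRNA, and the scavenging receptor ACKR3 read 18 with miR-210 and 21 with ncRNA. A probe under the old symbol IL8RA, which the gene table ties to both CXCR1 and CXCR2, read 16 with miR-210 and 5 with ncRNA. These receptors were picked for their ligands. Of the 14 chemokine receptors on the array, 1 was kept, CCR6, the receptor of CCL20, at 568 with miR-210 and 314 with ncRNA with a log2 ratio of 0.97.

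Among other chemokine ligands, 7 of 25 on the array were kept, and none was 2-fold apart. Over all genes kept, 3.19% were at least 2-fold lower and 3.02% at least 2-fold higher. The median log2 ratio of the 7 ligands was 0.08. CCL17, a ligand of CCR4, read 66 on the miR-210 array and 39 on the ncRNA array, a log2 ratio of 0.87. CCL25, a ligand of CCR9, read 75 with miR-210 and 49 with ncRNA, a log2 ratio of 0.72. CCL20, another NF-kB target of epithelia, read 23 with miR-210 and 29 with ncRNA and was not kept; it was named after its values were seen.

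Cytokines and receptors that induce chemokines had 15 of 26 genes kept, none 2-fold apart, with a median of 0.09. The largest difference was in IL1A, the epithelial alarm cytokine interleukin 1 alpha, which activates NF-kB through IL1R1. It read 329 on the miR-210 array and 685 on the ncRNA array, a log2 ratio of -0.95, and was past 2-fold on the deposited scale at -1.06. IL1RAP, the co-receptor of the interleukin 1 receptor, read 172 with miR-210 and 271 with ncRNA, with a log2 ratio of -0.54. IL1B, the other main agonist of that receptor, stood at -0.03, with intensities of 186 with miR-210 and 205 with ncRNA. In the other direction, the growth factor CSF2 stood at 0.54 and TNFRSF1A, a receptor of tumour necrosis factor, at 0.52. Of the 15 genes, 10 were above 0, and over all genes kept 48.6% were under 0. IL1B, CSF2 and TNFRSF1A were named after their values were seen.

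Components of the NF-kB and AP-1 pathways had 24 of 30 genes kept and a median of 0.08, with 2 at least 2-fold higher and none 2-fold lower. The shares over all genes kept were 3.02% higher and 3.19% lower. ATF3, a stress-induced transcription factor, read 170 on the miR-210 array and 69 on the ncRNA array, a log2 ratio of 1.41. FOS, an AP-1 subunit, read 71 with miR-210 and 37 with ncRNA, a log2 ratio of 1.04, and was under 2-fold on the deposited scale at 0.94. NFKBIA, the inhibitor of NF-kB that NF-kB itself induces, read 891 with miR-210 and 1531 with ncRNA, a log2 ratio of -0.62. TNFAIP3, another feedback inhibitor induced by NF-kB, read 290 with miR-210 and 284 with ncRNA, a log2 ratio of 0.16. NFKBIA and TNFAIP3 were named after their values were seen.

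Other NF-kB target genes were mostly above 0. Of 9 kept from 18 on the array, 8 were above 0 and 1 under it, none was 2-fold apart, and the median was 0.40. Over all genes kept, 48.6% were under 0. On the deposited scale 6 of the 9 were above 0 and 2 under it. PTGS2, the inducible cyclooxygenase, read 312 on the miR-210 array and 174 on the ncRNA array, a log2 ratio of 0.96. SOD2, the mitochondrial superoxide dismutase, read 815 with miR-210 and 467 with ncRNA, a log2 ratio of 0.94.

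The interferon pathway that induces CXCL10 and CXCL11 had 15 of 22 genes kept, none 2-fold apart, with a median of 0.17. STAT2, a transducer of interferon signals, read 300 on the miR-210 array and 485 on the ncRNA array, a log2 ratio of -0.57, and was past 1.5-fold on the deposited scale at -0.69. ISG15, a ubiquitin-like interferon-induced protein, read 1769 with miR-210 and 1449 with ncRNA, a log2 ratio of 0.46. On the deposited scale 8 of the 15 were above 0 and 6 under it.

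Chemokine transcripts such as CXCL1, CXCL2, CXCL3 and CXCL8 are short-lived because AU-rich elements near their ends recruit decay factors. The list holds such factors together with proteins that oppose them, among them ELAVL1, which stabilises these transcripts, and the kinase MAPKAPK2. Of its 12 genes on the array 11 were kept, with a median of 0.01, 1 at least 2-fold lower and none 2-fold higher. Over all genes kept, the shares were 3.19% lower and 3.02% higher. ZFP36L1, a zinc finger protein that binds these elements and speeds decay, read 470 on the miR-210 array and 1391 on the ncRNA array, a log2 ratio of -1.43. Its relatives ZFP36L2 and ZFP36 stood at 0.72 and 0.61. CNOT1, the scaffold of the deadenylase complex, read 194 with miR-210 and 394 with ncRNA, a log2 ratio of -0.90, which was past 2-fold on the deposited scale at -1.02. The relatives of ZFP36L1, and CNOT1, were named after their values were seen, and ELAVL1 and MAPKAPK2 for their role.

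Of 12 proteases and adaptors that cut or hold chemokines, 4 were kept, 1 of them 2-fold lower and none 2-fold higher. The same shares over all genes kept were 3.19% and 3.02%. SDC4, a cell surface heparan sulphate proteoglycan that binds chemokines, read 198 on the miR-210 array and 466 on the ncRNA array, a log2 ratio of -1.12. The sheddase genes ADAM10 and ADAM17, which release CXCL16 from the membrane, stood at 0.35 and 0.68, with ADAM17 at 48 on the miR-210 array and 32 on the ncRNA array. ADAM10 and ADAM17 were named for their part in CXCL16 release.

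On the deposited scale, which moved the median gene to -0.12, the medians of several of these lists lay on the other side of 0. They were -0.03 for the other chemokine ligands, -0.04 for the inducing cytokines and receptors, -0.03 for the NF-kB and AP-1 pathways and -0.13 for the decay factors. The other NF-kB targets and the interferon pathway had medians of 0.19 and 0.05 on that scale.

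**Figure D5:**
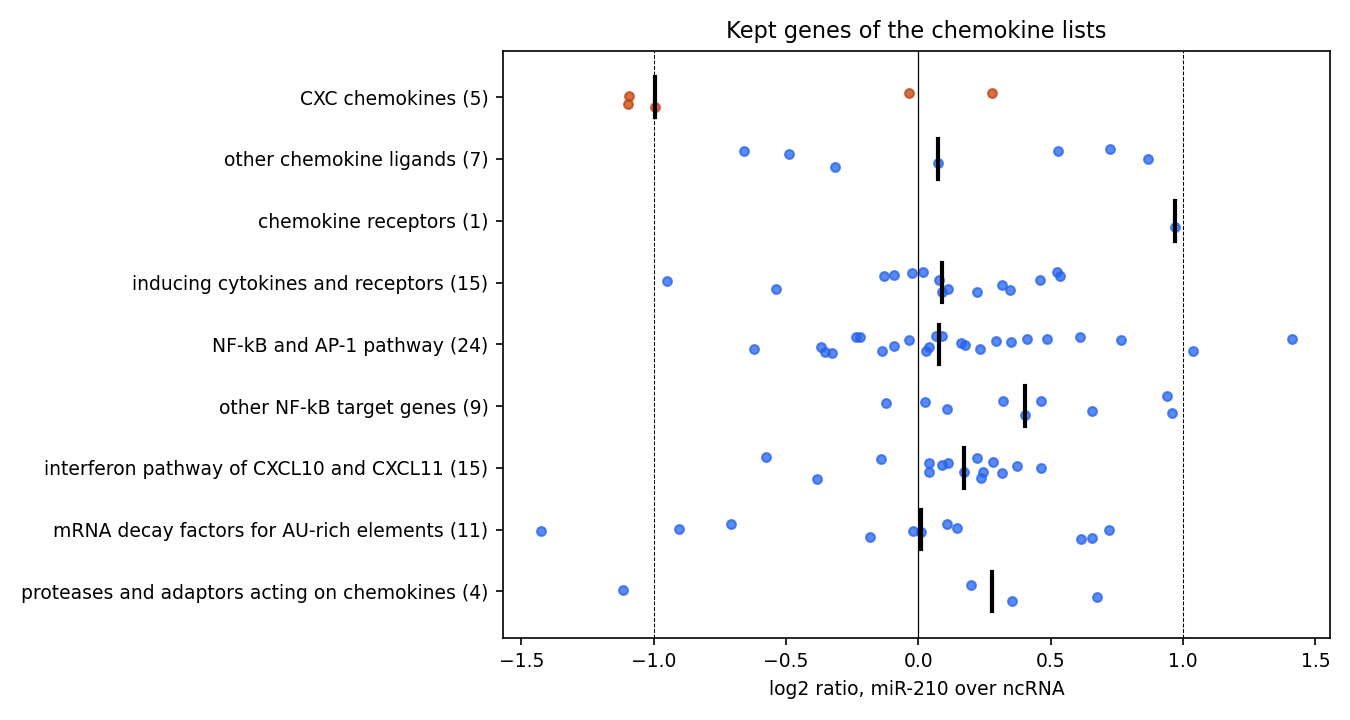
Log2 ratios of miR-210 over ncRNA (horizontal) for the kept genes of each list, 1 point per gene, with the number of genes in brackets and a black bar at the list's median. Dashed lines mark 2-fold. The 3 of the 5 CXC chemokines at about -1 are those the set was selected on. The medians of the other NF-kB targets and of the interferon pathway lie at 0.40 and 0.17, and were 0.19 and 0.05 on the deposited scale.

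Among markers of other chemokine-making cells, those of leukocytes and fibroblasts were mostly dim on both arrays, and those of endothelium less so. The leukocyte list had 1 kept gene, CD79A, at 126 with miR-210 and 133 with ncRNA, of the 11 above 0 on both arrays, and the pan-leukocyte marker PTPRC read 10 on the miR-210 array and 9 on the ncRNA array. ITGAM, a myeloid integrin, was at 0 on the miR-210 array and 8 on the ncRNA array. PTPRC and ITGAM were named for being defining or at 0. Summed over the 11 genes, the leukocyte markers read 283 on the miR-210 array and 271 on the ncRNA array, with single genes between 3 and 126 on the miR-210 array and between 6 and 133 on the ncRNA array. Fibroblast markers had 3 of 9 kept and sums of 381 with miR-210 and 412 with ncRNA, with DCN and PDGFRB at log2 ratios of 0.10 and -0.04. Endothelial markers had 4 of 8 kept and sums of 489 with miR-210 and 500 with ncRNA, with KDR at -0.76 and ESAM at 0.65. The part of such cells in the chemokine values was not tested.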

How the data were processed

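Total RNA of KYSE-170 cells was measured on a 1-colour oligonucleotide array (Toray), 1 array per transfection. The deposited table holds linear intensity values for 24267 probes, whole numbers from -8 to 65496. This unit was read from the values; how the authors scanned, background-corrected or scaled them is not given in the sources used here. Negative values require that a background had been subtracted. The arrays correlated across probes with a Spearman rho of 0.92.

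Gene symbols came from the platform annotation: 13395 probes had exactly 1 symbol, 0 had several, and the remaining 10872 are unnamed. RefSeq's gene table (GRCh38.p14) updated 2285 of the 12474 symbols, and 113 matched none of its current names. Intensities of probes above 0 on both arrays were taken to log2, quantile normalized, and filtered at the median mean level. A gene took its brightest kept probe. Log2 ratios are miR-210 minus ncRNA. No test is possible with 1 array per group, and the number of arrays limits the precision. Normalization was checked on simulated data with changes placed only in probes brighter than those of CXCL1 and CXCL3, so the check does not cover their levels. The named genes were all 10 chemokines and, in each other list, every kept gene at least 2-fold apart or else the 2 farthest from 0 (the 2 farthest for marker lists); others are named in the text for their role or place or, as stated there, after their values were seen. With 2 arrays, no genes of similar pattern could be picked. The members and lists were chosen with earlier results of these data known. Promoters and miRNAs are RefSeq sequences (GRCh38.p14), with 9 of 10 members matched by symbol. Alternatives were the deposited scale, median centring, loess on level with a span of 0.3, offsets of 10 and 50, no filter or the 75th percentile, and means over probes. Python 3.11.15, numpy 2.4.6, pandas 2.3.3 and statsmodels 0.14.6 were used.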

Additional observations from a re-analysis of the deposited data

How the results depend on the processing

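No paired analysis was possible because each group had 1 array. Percentages in brackets are the share of all genes past the same mark under the same setting. With an offset of 10, and with an offset of 50, 0 chemokines were at least 2-fold lower (2.59% and 1.41% of all genes kept), against 2 as reported; this follows from the offset, which shrinks ratios of dim probes, and the median of the 5 genes was -0.54 with the offset of 50. With no level filter all 10 genes entered, 4 were at least 2-fold lower (6.95% of all genes), 5 at least 1.5-fold lower (15.7%), 1 gene (CXCL14) was past 2-fold in the higher direction (7.05%), so 1 was also past 1.5-fold there (17.2%), and the median was -0.55. With the filter at the 75th percentile 2 genes were left, CXCL5 and CXCL8, with 0 at least 2-fold lower (2.8%), 1 at least 1.5-fold lower (9.37%) and a median of -0.51. Averaging all probes of a gene with no filter, chosen after the CXCL8 probes were seen, gave 4 genes at least 2-fold lower (6.8%), 1 past 2-fold (6.95%) and 1 past 1.5-fold (17.1%) in the higher direction, a median of -0.073, and 0.57 for CXCL8, which was thereby above 0. In 90 of the 112 recomputed values the result moved by less than the spread between probes or, for a count, by no more than 1.5 times. Some of these values could not move. Each of the 5 kept chemokines had 1 kept probe, so a filter or a mean over kept probes leaves its ratio unchanged. A count of 3 in place of 2 was also within that margin. Leaving out an array was not possible with 1 per group. Low signal over background limits CXCL1 (32 on the miR-210 array), CXCL2, CXCL6, CXCL10, CXCL11, CXCL14 and the dimmer CXCL8 probes.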

Other observations

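The neutrophil-attracting chemokine genes lie side by side on chromosome 4, and the other genes of that cluster and its borders were looked up by position in the RefSeq gene table. Between CXCL8 and CXCL2 lie 3 more chemokine genes. PF4V1, a variant of platelet factor 4, read 258 on the miR-210 array and 445 on the ncRNA array and was kept, with a log2 ratio of -0.66. PF4, platelet factor 4 itself, read 5 with miR-210 and 11 with ncRNA, and PPBP, the precursor of a platelet chemokine, read 40 with miR-210 and 33 with ncRNA; neither was kept. PF4V1 and PF4 are close copies, and whether their probes share RNA was not tested.

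Outside the cluster, RASSF6 next to CXCL8 read 31 on the miR-210 array and 42 on the ncRNA array. EREG, the EGF family ligand epiregulin on the other side, read 23 with miR-210 and 10 with ncRNA, a log2 ratio of 1.23, and was under the filter. The liver genes AFP and AFM, on the far side of RASSF6, read 32 and 12 on the miR-210 array and 29 and 16 on the ncRNA array. Within the cluster, CXCL5, at a log2 ratio of -0.03, lies next to CXCL3, at -1.09.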
